A study of Homo sapiens with 4 samples.

Results

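A set of 10 genes of glucose breakdown and of the response to low oxygen was examined in MRC5, a cell line grown from fibroblasts of human fetal lung. They were chosen by symbol (SLC2A1, HK1, HK2, PFKP, PFKFB3, PFKFB4, LDHA, GAPDH, PDK1 and VEGFA), and all 10 symbols were found among the 26255 genes listed in each library. The study compared 2 libraries of cells labelled as treated with miRs (microRNAs) with 2 libraries labelled as having no treatment, here called control. All 4 were labelled wild type, of the cell type "normal", and carry 48 h in their titles. The labels name neither the microRNAs nor their dose, and the series title speaks of a negative-control microRNA where the treatment label of the control cells says none, so it is not known whether control cells were transfected. Nothing in the labels says that the 2 libraries of a group came from separate cultures, and each p-value therefore reflects the spread of these libraries alone, which may be technical.

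MicroRNAs pair with matching stretches of messenger RNA and lower its level or its translation. Glycolysis turns glucose into pyruvate in the cytosol. Glucose enters through carriers such as SLC2A1, is trapped by hexokinases, and is committed to breakdown at the phosphofructokinase step, whose activity is set by a fructose bisphosphate that the PFKFB enzymes make and remove. Pyruvate is then either reduced to lactate or burned in mitochondria, and PDK1 closes the mitochondrial route by phosphorylating pyruvate dehydrogenase. When oxygen is scarce, the hypoxia-inducible factors, dimers of an oxygen-controlled subunit (HIF1A or EPAS1) and ARNT, raise transcription of many of these genes and of VEGFA. Cultured fibroblasts are known for strong glycolysis even in the presence of oxygen.

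The values are FPKM, that is, fragment counts scaled by transcript length and library size, so levels of different genes can be set side by side. Between 11622 and 11781 genes per library reached 1 FPKM, and the read totals are unknown. Differences are given on the log2(FPKM + 1) scale, miRs minus control, from limma, over the 11860 genes that averaged 1 FPKM or more in the 4 libraries. Of these, 29 (0.245%) passed an adjusted p of 0.05. All 10 genes were among the genes tested. None of the 10 passed, with 1 at an unadjusted p under 0.05, against 24.2% of all tested genes. The statements below therefore give values and gaps between libraries, and no gene of the 10 is called changed.

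What stood out among the 10 was a difference between the paired regulators of the phosphofructokinase step: PFKFB4 was 2.49 times as high in miRs cells as in control cells, while PFKFB3 lay below both controls in each miRs library. SLC2A1 and VEGFA were also higher in both miRs libraries, and HK1, PFKP and GAPDH lower, by small margins. LDHA, HK2 and PDK1 overlapped between the groups and differed more between libraries of one group than between groups. PFKFB3, PFKP and VEGFA did not overlap, yet their miRs libraries also differed more from each other than the groups did. Thus 3 of the 10 lay above both controls in both miRs libraries, where 29.5% of all tested genes did, and 4 of the 10 lay below, where 30.0% did. The median log2 difference of the 10 was −0.01, and that of all tested genes was 0.00. In RNA from whole cultures, fewer cells expressing a gene and less of its RNA per cell cannot be told apart.

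**Figure D1:**
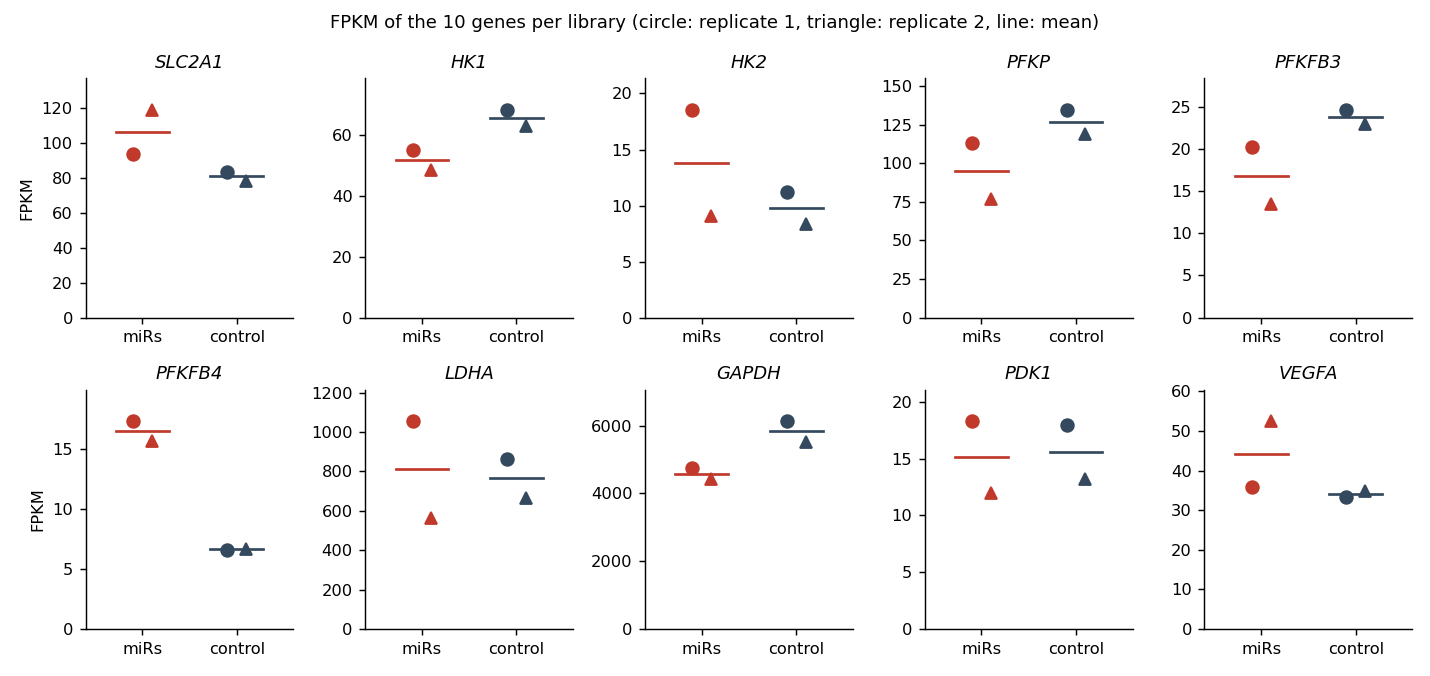
FPKM of each of the 10 genes in the miRs libraries (left, red) and the control libraries (right, blue), with a circle for replicate 1, a triangle for replicate 2 and a line at the mean of the group. PFKFB4 stands at 17.4 and 15.7 FPKM in miRs and near 6.6 FPKM in both controls, while the libraries of LDHA, HK2 and PDK1 interleave.

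Glucose enters cells through carriers of the SLC2A family. SLC2A1, the carrier of basal glucose uptake, was at 93.9 and 119 FPKM in miRs replicates 1 and 2, against 83.2 and 78.3 FPKM in control replicates 1 and 2. Both miRs libraries were above both controls, by 1.32-fold in the means (106 ± 17.8 FPKM in miRs and 80.8 ± 3.42 FPKM in control, SD, n = 2 each). This was a log2 difference of 0.38 ± 0.16 (SE; limma, adjusted p = 0.244). Leaving out miRs replicate 1 gave a difference of 0.55, and leaving out miRs replicate 2 gave 0.21. SLC2A3, a carrier of higher affinity, showed a wider gap between the groups, at 37.7 and 53.8 FPKM in miRs against 24.8 and 22.6 FPKM in control (log2 difference 0.90, adjusted p = 0.107). Within a library SLC2A1 was therefore 2.49 and 2.21 times as abundant as SLC2A3 in miRs cells and 3.36 and 3.47 times as abundant in control cells.

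The hexokinases phosphorylate glucose and so keep it in the cell. HK1, the form found in most tissues, was at 55.2 and 48.6 FPKM in miRs, against 68.5 and 63.1 FPKM in control. Both miRs libraries were lower (log2 difference −0.34 ± 0.14, adjusted p = 0.226 in limma). HK2, the form that hypoxia and growth signals induce, was at 18.6 and 9.05 FPKM in miRs, against 11.2 and 8.31 FPKM in control. The 2 miRs libraries lay 2.05-fold apart, on either side of the higher control. Its log2 difference of 0.39 ± 0.36 (adjusted p = 0.539 in limma) rested on miRs replicate 1: without that library it was −0.09, and without miRs replicate 2 it was 0.87. HK2 made up 25.2% and 15.7% of summed hexokinase FPKM in miRs and 14.0% and 11.5% in control, so its share was higher in both miRs libraries, the lower of them by a small margin.

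Phosphofructokinase is the committed step, and PFKP, its platelet form, was the most abundant of its 3 subunit genes. PFKP was at 113 and 76.8 FPKM in miRs, against 135 and 119 FPKM in control. Both miRs libraries were lower, yet miRs replicate 1 was close to control replicate 2 (log2 difference −0.44 ± 0.22, adjusted p = 0.306 in limma). With miRs replicate 1 left out the difference was −0.72, and with miRs replicate 2 left out −0.16. The liver form PFKL, at 56.6 and 56.2 FPKM in miRs against 79.5 and 72.9 FPKM in control, and the muscle form PFKM, at 18.8 and 18.6 FPKM against 29.02 and 27.99 FPKM, were lower in both miRs libraries too (adjusted p = 0.143 for PFKL and 0.0941 for PFKM). All 3 subunit genes summed to 188 and 152 FPKM in miRs and 243 and 220 FPKM in control. PFKP held 60.1% and 50.7% of that sum in miRs and 55.4% and 54.1% in control, so the mix of subunits overlapped between the groups.

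PFKFB4 and PFKFB3 are bifunctional enzymes that make and remove the fructose bisphosphate activating phosphofructokinase, PFKFB3 with by far the stronger kinase. PFKFB4 was at 17.4 and 15.7 FPKM in miRs, against 6.62 and 6.66 FPKM in control. The groups were far apart and the libraries within each close, at 16.5 ± 1.20 FPKM in miRs and 6.64 ± 0.0319 FPKM in control (SD, n = 2 each). The log2 difference was 1.19 ± 0.13 (SE), with an adjusted p of 0.0632 by limma, just above the 0.05 threshold. In absolute size, 4.25% of tested genes had a log2 difference at least as large. With any 1 library left out, the difference of PFKFB4 stayed between 1.12 and 1.26.

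PFKFB3 was at 20.2 and 13.5 FPKM in miRs, against 24.7 and 23.0 FPKM in control. Both miRs libraries were lower, replicate 2 by more (log2 difference −0.50 ± 0.22, adjusted p = 0.251 in limma). The miRs libraries lay 0.55 apart on that scale, more than the groups did. Without miRs replicate 1 the group difference was −0.78, and without miRs replicate 2 it was −0.23. PFKFB4 was thus 0.859 and 1.16 times as abundant as PFKFB3 in miRs cells and 0.268 and 0.289 times in control cells. On the log2 scale that ratio was higher by 1.84 in miRs, and by 1.62 to 2.06 with any 1 library left out. The sum over the 4 PFKFB genes was 38.4 and 30.5 FPKM in miRs and 31.8 and 30.2 FPKM in control, and PFKFB4 made up 45.2% and 51.4% of it in miRs and 20.8% and 22.1% in control. With 2 libraries against 2, a two-sided exact permutation test of any such ratio cannot give a p below 0.333.

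In GENCODE 29, UCN2, the gene of a secreted peptide of the corticotropin-releasing family, overlaps PFKFB4 on the same strand. UCN2 was at 9.09 and 14.1 FPKM in miRs, against 4.22 and 4.64 FPKM in control, so it too was higher in both miRs libraries. How fragments of the shared stretch were assigned is not given in the sources used here, and its part in the PFKFB4 values was not tested.

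**Figure D2:**
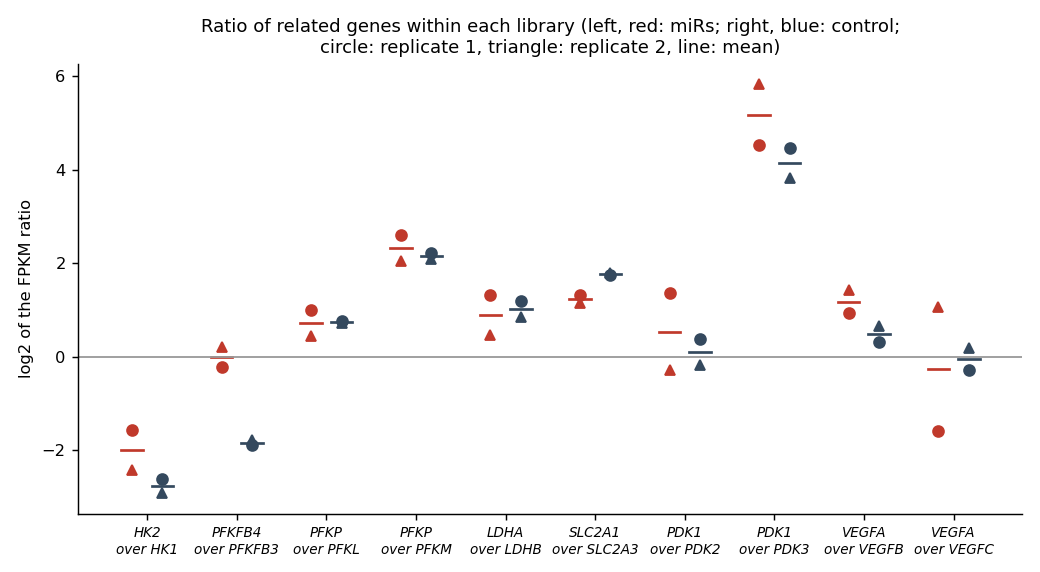
Log2 of the FPKM ratio between related genes within each library, for 10 pairs, with miRs at the left of each pair (red) and control at the right (blue), a circle for replicate 1, a triangle for replicate 2 and a line at the mean. PFKFB4 over PFKFB3 is near 0 in miRs and near −1.8 in control, the largest distance among the pairs between group means, and 5 of the 10 pairs overlap between the groups.

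Upstream sequences are shown for the PFKFB pair, which carried the clearest contrast, and for LDHA, whose promoter is a textbook target of the hypoxia-inducible factors. They come from RefSeq (GRCh38.p14, a later build than that of the study), give the 250 bases before an annotated start in the direction of the gene, and have in capitals each match to ACGTG or GCGTG on either strand, the core of the hypoxia response element. PFKFB4 (chr3:48556804-48557053, minus strand) has 1 match, 166 bases before its start. The downstream of the 2 starts of PFKFB3 (chr10:6202682-6202931, plus strand) has CACGTG, which reads ACGTG on both strands and so counts as 2 overlapping matches. The upstream of the 2 starts of LDHA (chr11:18394313-18394562, plus strand) has 5 matches, 4 of them in a pair of CACGTG. PFKFB4 has 1 start. The windows of PFKFB3 and LDHA each have more matches than the other start of the gene, which is not shown. For PFKFB3 the surplus comes from counting CACGTG on both strands. The other start of PFKFB3 has 1 match, 168 bases before it, and that of LDHA has 1, 123 bases before it.
PFKFB4: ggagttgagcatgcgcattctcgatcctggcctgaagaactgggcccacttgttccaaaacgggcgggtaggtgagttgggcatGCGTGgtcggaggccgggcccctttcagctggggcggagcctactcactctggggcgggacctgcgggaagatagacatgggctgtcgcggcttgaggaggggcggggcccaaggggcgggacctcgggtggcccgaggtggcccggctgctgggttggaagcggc
PFKFB3: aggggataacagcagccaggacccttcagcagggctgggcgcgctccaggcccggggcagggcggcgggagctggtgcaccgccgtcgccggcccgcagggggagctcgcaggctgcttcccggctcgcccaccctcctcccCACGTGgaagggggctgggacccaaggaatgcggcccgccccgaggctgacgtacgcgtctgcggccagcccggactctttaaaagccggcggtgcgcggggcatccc
LDHA: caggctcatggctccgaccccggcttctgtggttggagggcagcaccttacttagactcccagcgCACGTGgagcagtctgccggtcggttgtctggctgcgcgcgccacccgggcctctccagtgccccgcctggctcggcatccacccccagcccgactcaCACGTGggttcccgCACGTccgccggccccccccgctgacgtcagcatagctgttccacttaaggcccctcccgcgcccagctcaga

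Entries were found for 9 of the 10 genes (all but VEGFA), with 22 starts in all. A match stood in 12 of these 22 windows and in 8 of the 9 genes, SLC2A1 being without one. Of all 35116 windows of this length in the table, 43.2% hold a match, and of all 27305 genes with such a window 47.4% have a match in at least 1. Genes with more starts have more windows: a match stood in 6 of 6 of the genes with 2 or more starts, where 69.6% of all such genes have one, and in 2 of 3 with 1 start, where 42.2% do. PFKFB4 with 1 match, LDHA with 5 at this start and SLC2A1 with none thus differ in this window, and nothing about binding follows from that.

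GAPDH, the dehydrogenase in the middle of the pathway and a common reference gene, was the most abundant of the 10. It was at 4736 and 4421 FPKM in miRs, against 6135 and 5526 FPKM in control. Both miRs libraries were lower, at a mean of 4578 ± 223 FPKM against 5831 ± 431 FPKM (SD, n = 2 each). In limma the log2 difference was −0.35 ± 0.13 (adjusted p = 0.213). The difference was 0 after quantile normalization, which gives genes of equal rank the same value: GAPDH ranked 2 and 4 among all genes in the miRs libraries and 2 and 4 in the controls. GENCODE 29 names 62 pseudogenes of GAPDH, so its level depends on how shared reads were assigned and is uncertain.

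LDHA, the lactate dehydrogenase subunit that favours lactate formation, was at 1056 and 565 FPKM in miRs, against 861 and 667 FPKM in control. Both controls lay between the miRs libraries, which were 1.87-fold apart. The log2 difference of 0.03 ± 0.34 (adjusted p = 0.971 in limma) became −0.42 without miRs replicate 1 and 0.48 without miRs replicate 2. LDHB, the subunit of oxidative tissues, was steadier, at 421 and 410 FPKM in miRs and 376 and 370 FPKM in control (log2 difference 0.16, adjusted p = 0.457). LDHA made up 71.5% and 57.9% of summed LDH FPKM in miRs and 69.6% and 64.3% in control, again with the controls between the miRs libraries. LDHA has 6 named pseudogenes, and its level is likewise uncertain.

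PDK1 was at 18.3 and 11.98 FPKM in miRs, against 17.98 and 13.2 FPKM in control. The groups overlapped almost fully (log2 difference −0.05 ± 0.26, adjusted p = 0.922 in limma), and leaving out miRs replicate 1 or miRs replicate 2 gave −0.34 or 0.24. PDK2, a family member of broad expression, was at 7.14 and 14.7 FPKM in miRs against 13.9 and 14.9 FPKM in control, and overlapped as well. PDK3 stayed under 1 FPKM in every library.

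VEGFA, the secreted growth factor of blood vessels, was at 35.8 and 52.5 FPKM in miRs, against 33.4 and 35.0 FPKM in control. Both miRs libraries were higher, but replicate 1 by less than 1 FPKM over the nearer control (log2 difference 0.34 ± 0.21, adjusted p = 0.390 in limma). Without miRs replicate 1 the difference was 0.61, and without miRs replicate 2 it was 0.07. VEGFB was lower in both miRs libraries, at 18.9 and 19.6 FPKM against 26.9 and 22.1 FPKM (adjusted p = 0.264). VEGFC, a ligand of lymphatic vessels, was at 108 FPKM in miRs replicate 1 and 25.1 FPKM in miRs replicate 2, outside its control values of 40.4 and 30.7 FPKM on either side.

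**Figure D3:**
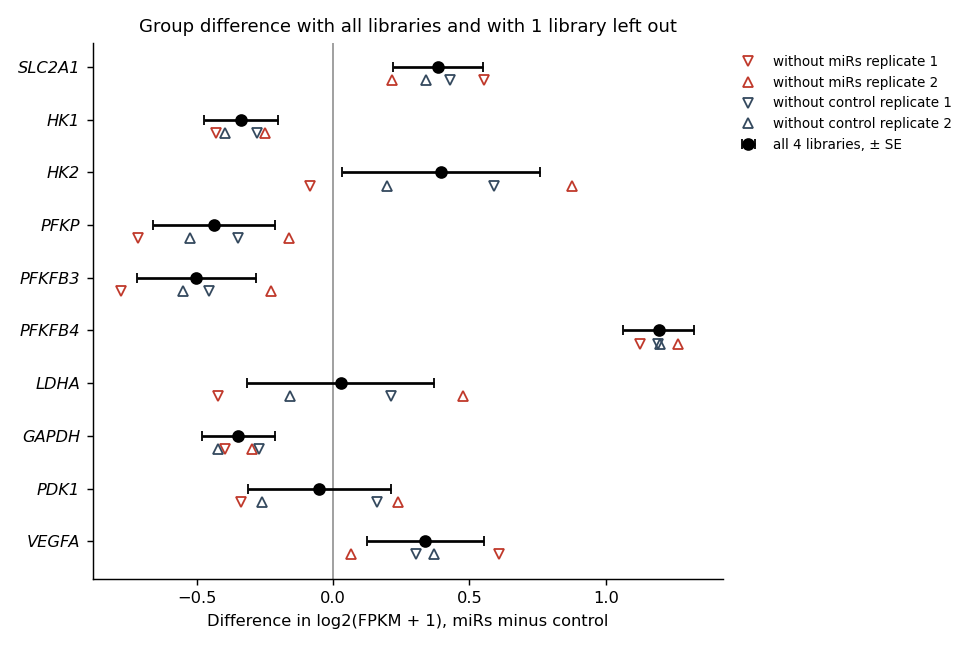
Difference in log2(FPKM + 1), miRs minus control, for the 10 genes with all 4 libraries (black, ± SE from limma) and with 1 library left out (open triangles, red for a miRs library and blue for a control library). PFKFB4 stays between 1.12 and 1.26, whereas HK2, LDHA and PDK1 fall on both sides of 0.

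The miRs libraries differed from each other more for these genes than for the typical tested gene, while the controls did so to a similar extent as for other genes. The median absolute gap of the 10 genes was 0.54 between the miRs libraries and 0.13 between the controls on the log2 scale, beside 0.27 and 0.12 over all tested genes. The library of replicate 1 was the higher for 8 of the 10 genes in miRs and for 8 of the 10 in control, where it was the higher for 51.1% and 51.2% of all tested genes. For 7 of the 10 it was the higher in both groups. Between the miRs libraries the gap was 0.96 for HK2 and 0.90 for LDHA, but −0.34 for SLC2A1 and −0.54 for VEGFA, which were higher in miRs replicate 2. The group difference exceeded both gaps for 4 of the 10 genes, PFKFB4, SLC2A1, HK1 and GAPDH, and for 44.1% of all tested genes, so the count is near the background.

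**Figure D4:**
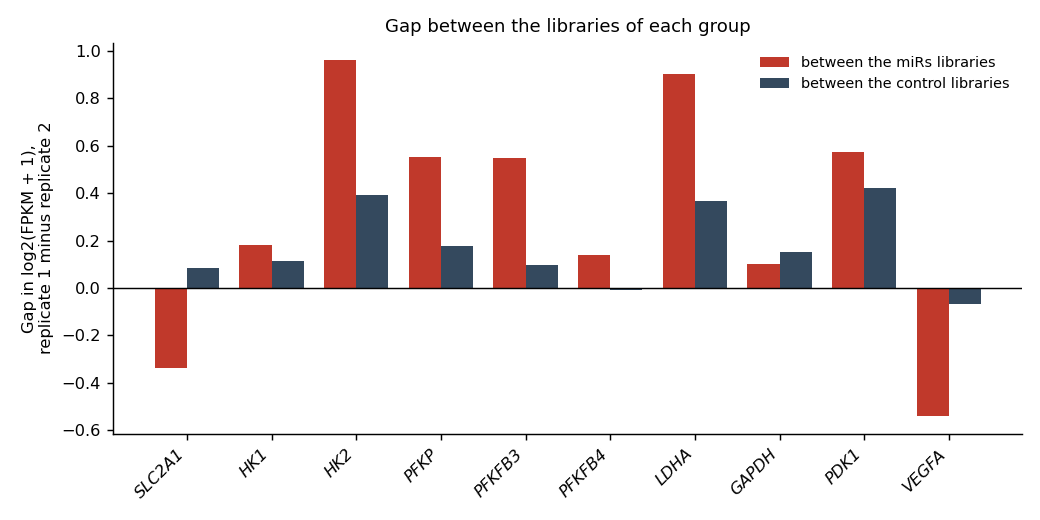
Gap in log2(FPKM + 1) between replicates 1 and 2 for each gene, as bars from 0, between the miRs libraries (red) and between the control libraries (blue). HK2 and LDHA have gaps of 0.96 and 0.90 in miRs, and SLC2A1 and VEGFA have gaps of the opposite sign.

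In level per kilobase, the order in control was GAPDH, LDHA, PFKP, SLC2A1, HK1, VEGFA, PFKFB3, PDK1, HK2 and PFKFB4, and neighbours in it did not overlap between the 2 control libraries. In miRs, SLC2A1 stood above PFKP and PFKFB4 above PDK1 and HK2. There SLC2A1 and PFKP overlapped, HK1 and VEGFA overlapped, and so did each neighbouring pair among PFKFB3, PFKFB4, PDK1 and HK2. Among the 3 genes whose profile over the 4 libraries lay nearest to that of PFKFB4 (Euclidean distance of log2 values centred on each gene's mean) were MTF2, a Polycomb-associated protein, at a distance of 0.134, and PPT1, a lysosomal thioesterase, at 0.137. MTF2 was at 10.6 and 8.655 FPKM in miRs, against 4.002 and 3.889 FPKM in control, and PPT1 at 48.1 and 48.6 FPKM against 20.98 and 22.2 FPKM, so both were higher in both miRs libraries. Nearest to PFKFB3 were KCTD9 (0.0249), TMEM54 (0.0426) and TXNDC15 (0.0514).

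The wider pathway was described over 7 lists with 82 tested genes, of which 0 passed in limma over all genes. At an unadjusted p under 0.05 there were 6 higher and 14 lower, together 24.4%, where all tested genes gave 24.2%. Both miRs libraries lay above both controls for 22 and below them for 18, together 48.8%. Over all tested genes 29.5% lay above and 30.0% below, and the 48.8% was less than the sum of these shares. Both directions occurred in 6 of the 7 lists.

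Among 10 tested transporters of glucose and lactate, 3 were higher and 2 lower in both miRs libraries (median log2 difference −0.08). SLC16A1, a carrier of lactate and pyruvate, was at 32.2 and 27.3 FPKM in miRs, against 16.3 and 14.6 FPKM in control (log2 difference 0.90 ± 0.15, adjusted p = 0.0822 in limma). SLC16A4, of the same family, was at 15.8 and 10.03 FPKM against 8.27 and 8.75 FPKM, and SLC2A10 at 12.7 and 13.6 FPKM against 17.4 and 17.6 FPKM. Of 15 other glycolytic enzymes tested, 4 were lower and 1 (LDHB) higher in both miRs libraries, with a median log2 difference of −0.24. The 4 were PFKL, PFKM, the aldolase ALDOC, at 10.6 and 11.98 FPKM in miRs against 21.8 and 28.4 FPKM in control (log2 difference −1.08 ± 0.18, adjusted p = 0.0829), and the enolase ENO2, at 21.5 and 12.4 FPKM against 37.9 and 31.6 FPKM (adjusted p = 0.137). ALDOC and ENO2 are the forms known from nervous tissue.

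At the entry of pyruvate into mitochondria, 12 genes were tested, 5 of them higher and 1 lower in both miRs libraries (median log2 difference 0.10). The 1 lower gene was MPC1, a subunit of the mitochondrial pyruvate carrier, at 6.15 FPKM in both miRs libraries, against 12.6 and 14.1 FPKM in control (log2 difference −1.01 ± 0.13, adjusted p = 0.0667 in limma). PDP1, the phosphatase that reverses the action of PDK1, was at 11.5 and 10.2 FPKM in miRs, against 5.74 and 6.90 FPKM in control (log2 difference 0.70, adjusted p = 0.102). PDHX was at 19.5 and 16.5 FPKM against 14.6 and 12.01 FPKM, and PDHA1 at 20.5 and 19.9 FPKM against 17.9 and 16.9 FPKM, both components of pyruvate dehydrogenase. In the list for control of the activating fructose bisphosphate and for gluconeogenesis, 3 genes were tested: TIGAR, at 5.10 and 4.37 FPKM in miRs against 4.54 and 3.85 FPKM in control, G6PC3, at 46.4 and 47.1 FPKM against 52.3 and 48.1 FPKM, and PCK2, at 11.7 and 46.8 FPKM against 16.1 and 19.9 FPKM.

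The oxygen-sensing machinery had 11 tested genes, 3 higher and 3 lower in both miRs libraries (median log2 difference 0.09). HIF1A was at 72.1 and 58.2 FPKM in miRs, against 98.7 and 85.6 FPKM in control (log2 difference −0.50 ± 0.17, adjusted p = 0.176 in limma). Its RNA was thus lower in both miRs libraries, though oxygen acts on the protein. HIF1AN, the hydroxylase that blocks its activation domain, was at 8.77 and 10.4 FPKM against 13.7 and 14.3 FPKM (adjusted p = 0.140). ARNT2, a homologue of ARNT, was at 1.99 and 4.81 FPKM against 10.7 and 13.5 FPKM (log2 difference −1.65, adjusted p = 0.0995). EPAS1 was at 21.8 FPKM in miRs replicate 1 and 72.2 FPKM in miRs replicate 2, against 67.5 and 79.2 FPKM in control, so the low value belonged to 1 library. ARNT, at 9.63 and 12.7 FPKM in miRs against 11.7 and 11.6 FPKM in control, overlapped between the groups. VHL, the ligase subunit that marks the oxygen-controlled subunits for destruction, was at 9.83 and 11.9 FPKM against 9.11 and 9.66 FPKM, and the coactivator EP300 at 13.5 and 18.1 FPKM against 11.2 and 13.1 FPKM.

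Other hypoxia-inducible genes went both ways. Of 26 tested, 9 were higher and 6 lower in both miRs libraries, with a median log2 difference of 0.14. NDRG1, a stress-responsive gene, was at 85.2 and 115 FPKM in miRs, against 39.3 and 43.8 FPKM in control (log2 difference 1.24 ± 0.19, adjusted p = 0.0770 in limma). ANKRD37 was at 3.53 and 2.76 FPKM against 1.01 and 1.30 FPKM (adjusted p = 0.0940), and ERO1A, an oxidase of protein folding, at 36.4 and 24.5 FPKM against 17.4 and 14.9 FPKM (adjusted p = 0.132). ADM, the vasodilator adrenomedullin, was lower, at 43.4 and 72.6 FPKM against 116 and 147 FPKM (log2 difference −1.20, adjusted p = 0.112). The VEGF list had 5 tested genes, with VEGFB lower and the coreceptor NRP1, at 51.6 and 52.0 FPKM against 48.5 and 47.4 FPKM, higher in both miRs libraries, while NRP2 overlapped.

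**Figure D5:**
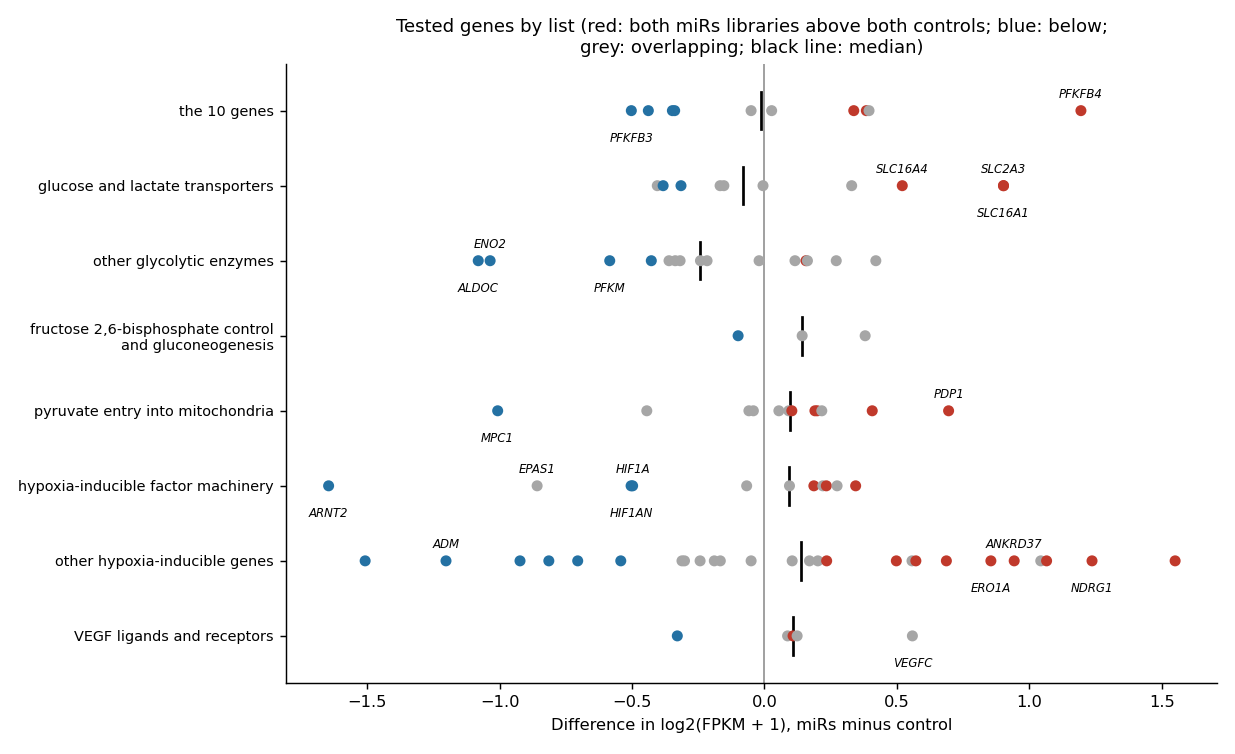
Difference in log2(FPKM + 1), miRs minus control, for each tested gene of the 10 and of the 7 pathway lists, 1 row per list, with a black line at the median. Red points have both miRs libraries above both controls, blue points below and grey points overlap. Points of both colours lie in most rows, and the medians run from −0.24 to 0.14.

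The fibroblast identity of the libraries and the presence of other cells were read from marker lists. All 15 fibroblast markers were tested, 7 of them lower and 1 higher in both miRs libraries. Over all tested genes, 30.0% were lower and 29.5% higher in both, the shares to set beside each such count of markers. At an unadjusted p under 0.05 in limma, 7 fibroblast markers were lower and 1 higher. In either direction, 24.2% of all tested genes reached that p. Of the 15 fibroblast markers 0 passed the threshold, and their median log2 difference was −0.48. Summed fibroblast levels were 9182 and 14230 FPKM in miRs and 14240 and 13390 FPKM in control. Of 12 epithelial markers 6 were tested, all 6 higher in both miRs libraries and 2 (KRT18 and KRT19) past the threshold. KRT7, CLDN4 and CLDN7 averaged under 1 FPKM in control, so they were tested only through their miRs values. The 12 summed to 200 and 269 FPKM in miRs against 30.4 and 33.3 FPKM in control, mostly from KRT18. Among those not tested, CDH1 was at 0 FPKM in both miRs libraries and at 0.0356 and 0 FPKM in control. EPCAM was at 1.07 and 1.61 FPKM in miRs against 0 and 0.228 FPKM in control. ELF3 was at 0.0756 FPKM in miRs replicate 1 and 0 elsewhere, and CLDN3, ESRP1 and GRHL2 were listed at 0 in all 4 libraries. Endothelial markers summed to 24.2 and 14.7 FPKM against 21.3 and 17.9 FPKM, and 3 of 10 were tested. Of these, ESAM was higher in both miRs libraries, at 3.68 and 1.62 FPKM against 0.296 and 0.310 FPKM (unadjusted p under 0.05, not past the threshold), and TEK and EGFL7 overlapped, TEK at 13.7 and 5.51 FPKM against 13.5 and 10.97 FPKM. ESAM too was tested only through its miRs values. PECAM1 and CDH5 stayed under 0.02 FPKM, and EMCN and ERG were listed at 0 in all 4 libraries. In all 4 libraries, 9 of 10 blood cell markers stayed under 1 FPKM, the other being CD68, at 130 and 41.9 FPKM against 53.8 and 57.6 FPKM. All 20 interferon response genes were higher in both miRs libraries, 0 of them past the threshold in limma and 20 at an unadjusted p under 0.05. Some of the 20, such as OAS1 (0 FPKM in both controls) and RSAD2 (0 and 0.0261 FPKM in control), were tested only through their miRs values. The interferon sums were 11380 FPKM in miRs replicate 1 and 2276 FPKM in miRs replicate 2, against 113 and 135 FPKM in control. Of the 10 genes, 8 were also higher in miRs replicate 1 and 2 (SLC2A1 and VEGFA) in miRs replicate 2. In control, 8 of the 10 were higher in replicate 1, where the interferon sum was the lower. The part of the interferon response and of the epithelial keratins in the values of the 10 genes was not tested.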

How the data were processed

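RNA libraries (TruSeq Stranded mRNA kit, per the labels' protocols) of MRC5 cells were compared, 2 labelled miRs and 2 labelled as untreated. The deposited values are FPKM per gene symbol, per the file headers. The submitters' processing notes list the build hg19, Cuffdiff 2.2.1, Bowtie2 2.2.8, TopHat2 2.1.1 and SAMtools 0.1.18. The annotation, strand setting and library scaling: not given in the sources used here. Total reads are unknown. From ratios of values under 0.3 FPKM, whose commonest value held 19.5% to 25.2% of the genes compared, 1 fragment was worth about 0.899, 1.03 and 1.05 times as much in miRs replicates 1 and 2 and control replicate 2 as in control replicate 1.

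Genes that averaged 1 FPKM or more were tested with limma 3.58.1 (R 4.3.3) on log2(FPKM + 1), with a variance trend, two-sided, with Benjamini-Hochberg adjustment over all tested genes at 0.05. The function was tested on simulated data. Fold changes on this scale understate those of low genes. Joins, ratios, motif searches and figures used Python 3.11.15 with pandas 2.3.3, numpy 2.4.6 and matplotlib 3.10.9. Overlapping genes and pseudogenes were taken from GENCODE 29, upstream sequences from RefSeq.

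The 10 genes and the lists were chosen with earlier results of these data known. Named are the 10 genes, the 4 genes of each pathway list with the smallest p, HIF1A, EPAS1, ARNT and VHL, the partners in 10 fixed ratios, and the 3 nearest profiles to the gene with the largest positive and the largest negative difference. UCN2 was named for its overlap. A gene that this rule names among the nearest profiles is not reported here. Alternatives were the replicate number as a block, each library left out, a pseudocount of 0.1, a floor of 5 FPKM or none, scaling by median of ratios or by quantiles, and a fit without the variance trend.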

Additional observations from a re-analysis of the deposited data

How the results depend on the processing

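Over all tested genes, the count past the threshold was 29, and 0 with no minimum FPKM (3338 at an unadjusted p under 0.05), 6 with quantile normalization and 99 with the replicate number as a block. It ran from 0 to 3906 when 1 library was left out, where the lone library is assumed to vary like the other group. Of the 10 genes, 0 passed under each alternative that kept all 4 libraries, and 0 to 5 with 1 library left out: SLC2A1, PFKP, PFKFB3, PFKFB4 and VEGFA without miRs replicate 1, and HK2 and PFKFB4 without miRs replicate 2. In both of these fits, without miRs replicate 1 or without miRs replicate 2, the count over all tested genes rose as well. They rest on the assumed spread of a lone library, so no gene of the 10 is called changed on them. The median of the 10 ran from −0.37 to 0.19 with 1 library left out and was 0.08 with quantile normalization. Differences that changed sign with 1 library left out ran from −0.086 to 0.87 for HK2, −0.42 to 0.48 for LDHA, −0.34 to 0.24 for PDK1, −0.25 to 0.11 for ARNT, −0.20 to 0.37 for NRP2, −0.58 to 1.34 for PCK2, −0.92 to 0.029 for PDK2 and −0.47 to 1.59 for VEGFC, and the cause was not tested. Same-numbered libraries deviated together with a correlation of 0.201 across genes, but with 2 pairs and no label tying the numbers to a culture, they share only a number. Under the replicate block the adjusted p of PFKFB4 was 0.0571. Unknown depth and 2 libraries per group limit all of this.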
